A study of Mus musculus with 12 samples.

Results

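The Janus kinases and STAT factors described here are 9 genes, 4 of kinases (Jak1, Jak2, Jak3 and Tyk2) and 5 of transcription factors (Stat2, Stat3, Stat5a, Stat5b and Stat6). They were picked by gene symbol from a table of 13935 rows, and all 9 passed the filter on low values and are among the 13915 genes tested. Expression was measured by RNA sequencing in mouse neutrophils that were sorted from femoral bone marrow by CD45, CD11b and Ly6G and then cultured for 8 h. Granulocyte colony-stimulating factor (G-CSF), the main growth factor of neutrophils, was added at 10 ng/ml or left out. The 4 groups hold 3 libraries each: LysMcre Socs3fl/fl cells with G-CSF, Socs3fl/fl cells with G-CSF, LysMcre Socs3fl/fl cells left untreated, and Socs3fl/fl cells left untreated. All 4 groups therefore carry Socs3 alleles flanked by loxP sites. The Cre recombinase of the LysMcre strain is made from the lysozyme 2 locus, which is active in myeloid cells and not in neutrophils alone. The groups are called LysMcre-labelled and floxed, because the counts could not show the loss of Socs3. In 3 libraries, those of LysMcre-labelled cells with G-CSF, the title omits Socs3fl/fl and also holds the word untreated, and the description was used to place them. The labels do not tie the 3 libraries of a group to separate mice. The p-values therefore rest on library-to-library spread alone, and that may be technical.

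Janus kinases are tyrosine kinases that sit on the inner tails of cytokine receptors. When a cytokine joins the receptor chains, the kinases phosphorylate each other and the receptor, and STAT proteins that dock there are phosphorylated, pair up and enter the nucleus to bind DNA. The G-CSF receptor works mainly through JAK2 and JAK1 and through STAT3 and STAT5, and STAT3 turns on Socs3, whose product binds the receptor and the kinases and ends the signal. JAK3 pairs with the common gamma chain of the interleukin-2 receptor family, and TYK2 serves interferon and interleukin-12 family receptors. STAT2 is the interferon-specific partner in a complex with IRF9, STAT5A and STAT5B are near-identical factors for many growth factors, and STAT6 answers interleukin-4 and interleukin-13.

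Values are normalized counts, which are the reads of a gene divided by a size factor of its library. Depth ran from 19495754 to 26472118 reads per library, and each of the 9 genes had between 322 and 27113 reads in every library, so counting error was at most 5.57% of a value. Socs3 was not lower in LysMcre-labelled libraries: it averaged 37335 ± 1219 normalized counts in LysMcre-labelled and 19504 ± 1635 in floxed libraries with G-CSF, and 292 ± 34.5 in LysMcre-labelled and 225 ± 23.1 in floxed untreated libraries (SD, n = 3 each). A value per gene does not tell which exons were read. Lyz2, whose locus carries the Cre, averaged 569 normalized counts in LysMcre-labelled and 46227 in floxed libraries with G-CSF, and 6053 in LysMcre-labelled and 222590 in floxed untreated libraries. All 14 neutrophil markers on a list that includes Ly6g, S100a8 and Csf3r were in the table, with a summed level of 1913300 to 2275400 normalized counts over the 12 libraries and no marker at 0 in a whole group. S100a8 and S100a9 weighed heavily in that sum and stood higher with G-CSF. S100a9 averaged 820400 in LysMcre-labelled and 707990 in floxed G-CSF libraries, and 491840 in LysMcre-labelled and 505430 in floxed untreated libraries. Retnlg averaged 17215 in LysMcre-labelled and 62861 in floxed G-CSF libraries, and 146190 in LysMcre-labelled and 155860 in floxed untreated libraries. The marker lists of B cells and of T and NK cells are given beside Jak3, which lymphocytes use most. Differences are given on the scale of log2(value + 1) with the standard error (SE). Adjusted p-values are from limma with Benjamini-Hochberg adjustment over all 13915 genes, and a gene passed at an adjusted p under 0.05. Of the 14 neutrophil markers 5 rose, 7 fell and 2 did not pass with G-CSF in each genotype. Over all genes tested 31.1% rose and 31.6% fell in LysMcre-labelled libraries, and 24.1% and 24.6% in floxed ones.

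G-CSF was followed by higher levels of Jak3, Jak2, Stat3 and Stat2 and by a lower level of Tyk2 in both genotypes. In LysMcre-labelled libraries 6 of the 9 genes rose, 1 fell and 2 did not pass, while 31.1% of all genes tested rose, 31.6% fell and 62.6% passed in either direction. In floxed libraries 5 rose, 3 fell and 1 did not pass, while 24.1% of all genes tested rose, 24.6% fell and 48.8% passed in either direction. In LysMcre-labelled libraries 6 genes lay above and 2 below their untreated level without overlap, against 33.6% and 34% of all genes tested, and in floxed libraries 5 lay above and 4 below, against 27.5% and 28.6%. The median difference of the 9 genes was 0.76 in LysMcre-labelled libraries, against a median of 0.00 over all genes tested. In floxed libraries it was 0.22, against 0.00 over all genes tested. The median over all genes depends on how the libraries are scaled. With equal totals it was -0.26 in LysMcre-labelled and -0.09 in floxed libraries.

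The summed levels of monocyte and of progenitor markers also stood apart by treatment in both genotypes. Those of eosinophil, basophil and mast cell markers did so in floxed libraries alone, and those of erythroid markers overlapped in both genotypes. The 8 monocyte and macrophage markers, all in the table, summed to 11708 to 14050 normalized counts in LysMcre-labelled and 14861 to 17545 in floxed G-CSF libraries, and to 19282 to 21251 in LysMcre-labelled and 20126 to 20579 in floxed untreated libraries. The 8 progenitor markers, all in the table, summed to 15082 to 16993 in LysMcre-labelled and 12334 to 16562 in floxed G-CSF libraries, and to 9889 to 10146 in LysMcre-labelled and 6079 to 12123 in floxed untreated libraries. Single genes weighed heavily in these sums. Ly6c2, a surface protein of monocytes, averaged 2254 in LysMcre-labelled and 4871 in floxed G-CSF libraries, and 10061 in LysMcre-labelled and 11062 in floxed untreated libraries. Cx3cr1 also fell in both genotypes, Ccr2 rose in both and Csf1r rose in floxed libraries, the other monocyte markers did not pass, and the median log2 difference of the 8 was 0.18 in LysMcre-labelled and 0.07 in floxed libraries. Among the progenitor markers Kit, the stem cell factor receptor, averaged 6166 in LysMcre-labelled and 2933 in floxed G-CSF libraries, and 800.1 in LysMcre-labelled and 783 in floxed untreated libraries. Prtn3 rose in both genotypes and Elane in floxed libraries, and the other progenitor markers did not pass. The 8 markers of eosinophils, basophils and mast cells summed to 3104 to 3207 in LysMcre-labelled and 2817 to 3847 in floxed G-CSF libraries, and to 2221 to 3220 in LysMcre-labelled and 1560 to 2552 in floxed untreated libraries. Siglecf weighed heavily here, at 1396 in LysMcre-labelled and 1270 in floxed G-CSF libraries, and 455 and 370 in the untreated ones. Of these 8 markers 7 did not pass in LysMcre-labelled and 6 in floxed libraries, and none fell past the threshold. The 5 erythroid markers in the table, of 8 listed, stayed at or below 311 in G-CSF libraries and ran from 180 to 1448 in untreated ones. No marker in the table was at 0 in a whole group, and the part of these cells in the results was not tested.

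**Figure D1:**
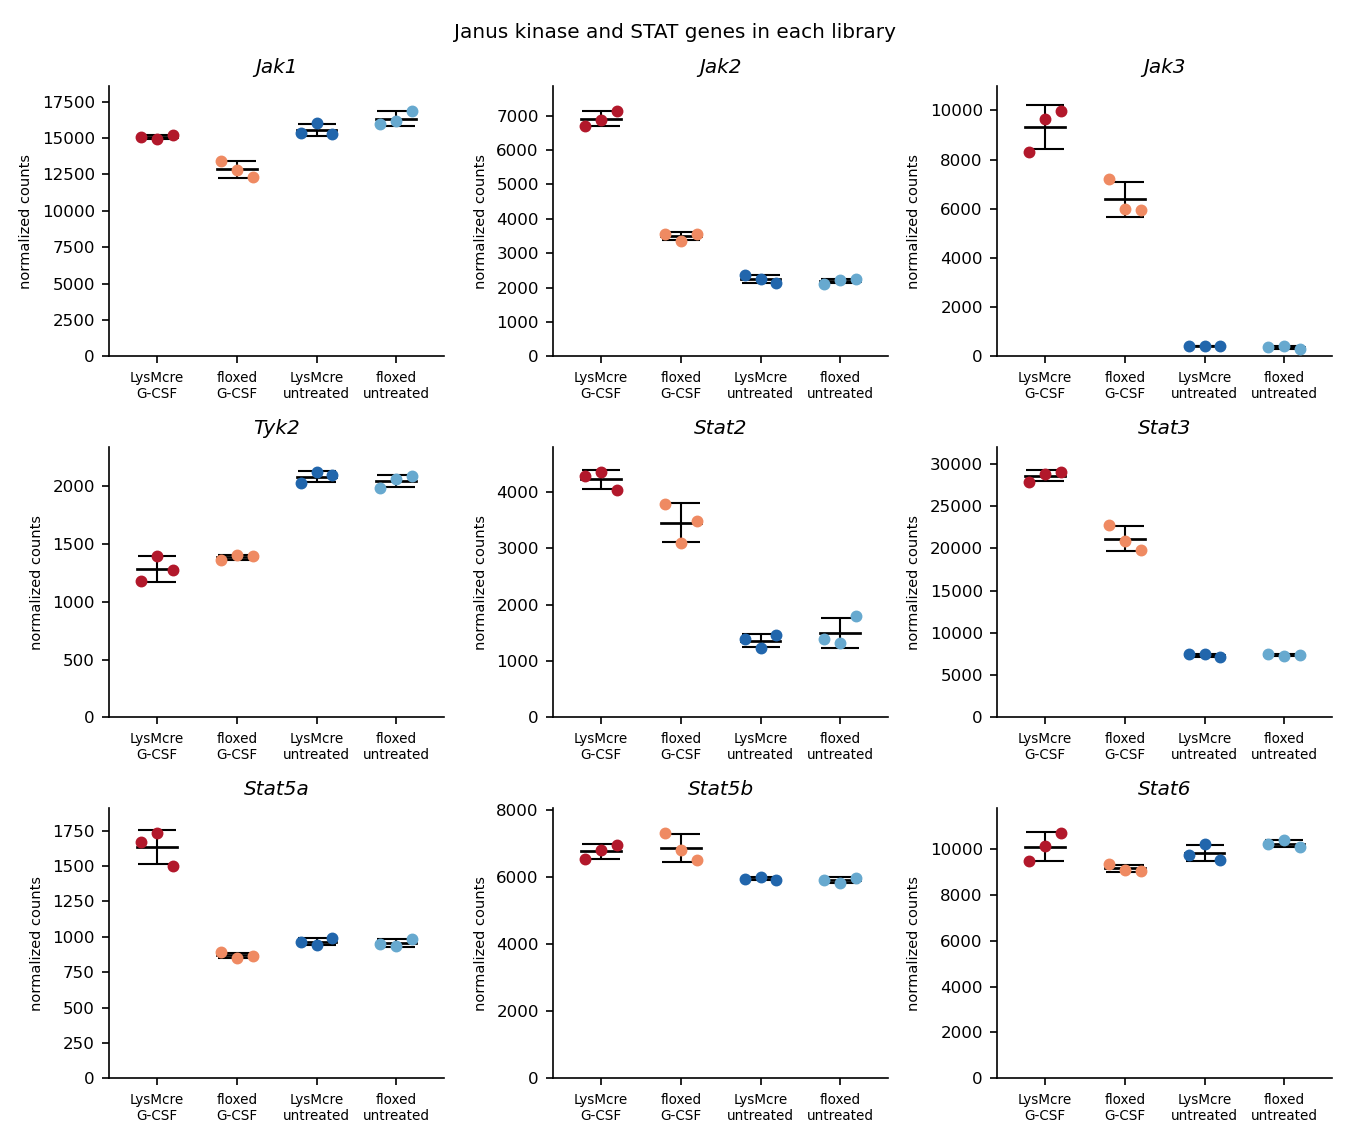
Normalized counts (vertical axes, starting at 0) of the 9 genes in the 4 groups, where each point is a library and the bars give the mean and SD of 3 libraries. Jak3 lies between 5948 and 9992 in the 6 G-CSF libraries and at or below 424 in the 6 untreated libraries, and Jak1, Stat5b and Stat6 lie within a narrow band in all groups.

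Jak3 (ENSMUSG00000031805.17, mm10 chromosome 8, 71676296 to 71690575, plus strand) moved most. It had 8313, 9664 and 9992 normalized counts in LysMcre-labelled libraries with G-CSF, against 424, 417 and 410 in LysMcre-labelled untreated libraries. The floxed libraries had 7191, 5990 and 5948 with G-CSF, against 395, 399 and 303 untreated. The lowest G-CSF library was far above the highest untreated library in each genotype. The rise was 22.2-fold in LysMcre-labelled libraries (limma log2 4.47, SE 0.10, adjusted p = 1.53e-14) and 17.5-fold in floxed libraries (limma log2 4.13, SE 0.10, adjusted p = 1.16e-13). Jak3 is best known from lymphocytes, and the summed markers of lymphocytes did not stand higher with G-CSF. The summed level of the 8 T and NK cell markers in the table was 302 to 336 normalized counts in LysMcre-labelled and 325 to 381 in floxed G-CSF libraries, and 584 to 656 in LysMcre-labelled and 502 to 615 in floxed untreated libraries. The 8 B cell markers summed to 10458 to 17154 in LysMcre-labelled and 7217 to 10809 in floxed G-CSF libraries, and to 12346 to 18057 in LysMcre-labelled and 9039 to 12956 in floxed untreated libraries. Cd3d, at 36.7 in LysMcre-labelled and 51.4 in floxed G-CSF libraries and at 296 in LysMcre-labelled and 243 in floxed untreated libraries, carried most of the T and NK cell gap, and Ighm made up most of the B cell sum in every group. No defining marker of either list in the table was at 0 in a whole group, and Ncr1 is not among the rows used here. In a bulk sample, more or fewer cells of a type and more or less RNA per cell cannot be told apart.

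Jak2 (ENSMUSG00000024789.13, chromosome 19, 29251828 to 29313080, plus strand) encodes the kinase most closely tied to the G-CSF, erythropoietin and GM-CSF receptors. It had 6706, 6883 and 7144 normalized counts in LysMcre-labelled libraries with G-CSF, against 2369, 2256 and 2139 untreated. Floxed libraries held 3541, 3360 and 3565 with G-CSF, against 2116, 2206 and 2251 untreated. Both genotypes were higher with G-CSF without overlap, and the floxed G-CSF libraries stood well short of the LysMcre-labelled ones. The rise was 3.07-fold in LysMcre-labelled libraries (limma log2 1.62, SE 0.05, adjusted p = 6.31e-13) and 1.59-fold in floxed libraries (limma log2 0.67, SE 0.05, adjusted p = 4.05e-08).

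Jak1 (ENSMUSG00000028530.14, chromosome 4, 101152367 to 101265282, minus strand) serves most receptors of the interferon, interleukin-6 and gamma chain families. It had 15036, 14912 and 15183 normalized counts in LysMcre-labelled libraries with G-CSF, against 15323, 16060 and 15290 untreated. For floxed cells the levels were 13438, 12807 and 12309 with G-CSF, against 15933, 16185 and 16885 untreated. The G-CSF libraries lay below the untreated ones without overlap in each genotype, by a narrow gap in the LysMcre-labelled ones. The difference was -0.05 in LysMcre-labelled libraries (SE 0.05, limma adjusted p = 0.439), and passed downward with equal totals (-0.31, adjusted p = 8.05e-06) and after quantile normalization (-0.49, adjusted p = 6.32e-08). Jak1 fell by 0.35 in floxed libraries (SE 0.05, limma adjusted p = 4.1e-05), and by 0.55 after quantile normalization (adjusted p = 3.13e-08).

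Tyk2 (ENSMUSG00000032175.11, chromosome 9, 21104068 to 21131243, minus strand) fell in both genotypes, in every alternative run. It had 1178, 1398 and 1275 normalized counts in LysMcre-labelled libraries with G-CSF, against 2031, 2127 and 2094 untreated. The level in floxed libraries was 1360, 1402 and 1396 with G-CSF, against 1987, 2064 and 2086 untreated. The level with G-CSF was 0.615 of the untreated level in LysMcre-labelled libraries (limma log2 -0.70, SE 0.06, adjusted p = 5.46e-08) and 0.678 of it in floxed libraries (limma log2 -0.56, SE 0.06, adjusted p = 1.3e-06). The groups did not overlap. An antisense transcript, 1700084C06Rik, covers 24326 bases of the Tyk2 locus and is not among the rows used here. The strand setting of the counting is not given in the sources used here, and reads of the pair cannot be told apart.

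Among the STAT genes, Stat3 (ENSMUSG00000004040.16, chromosome 11, 100885098 to 100939540, minus strand) had the largest rise. It had 27895, 28869 and 29109 normalized counts in LysMcre-labelled libraries with G-CSF, against 7470, 7452 and 7091 untreated. The floxed libraries had 22773, 20829 and 19856 with G-CSF, against 7444, 7303 and 7424 untreated. Every G-CSF library was above every untreated library. The rise was 3.90-fold in LysMcre-labelled libraries (limma log2 1.96, SE 0.06, adjusted p = 1.39e-13) and 2.86-fold in floxed libraries (limma log2 1.51, SE 0.06, adjusted p = 7.29e-12).

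Stat2 (ENSMUSG00000040033.16, chromosome 10, 128270559 to 128292849, plus strand) rose in both genotypes as well. It had 4284, 4366 and 4037 normalized counts in LysMcre-labelled libraries with G-CSF, against 1393, 1240 and 1461 untreated. Floxed libraries held 3791, 3094 and 3483 with G-CSF, against 1384, 1312 and 1805 untreated. The floxed untreated libraries had the widest relative spread of any gene and group here, a coefficient of variation of 17.7%, and still lay below all G-CSF libraries. The rise was 3.10-fold in LysMcre-labelled libraries (limma log2 1.63, SE 0.11, adjusted p = 1.94e-09) and 2.32-fold in floxed libraries (limma log2 1.21, SE 0.11, adjusted p = 1.26e-07).

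Stat5a (ENSMUSG00000004043.14, chromosome 11, 100859351 to 100885169, plus strand) rose in LysMcre-labelled libraries. It had 1670, 1736 and 1499 normalized counts in LysMcre-labelled libraries with G-CSF, against 962, 941 and 993 untreated. For floxed cells the levels were 889, 852 and 865 with G-CSF, against 951, 934 and 985 untreated. The floxed G-CSF libraries thus lay just under the floxed untreated ones, and the LysMcre-labelled G-CSF libraries stood apart from all others. The rise in LysMcre-labelled libraries was 1.69-fold (limma log2 0.76, SE 0.06, adjusted p = 2.59e-08), and the difference was 0.50 with equal totals (adjusted p = 1.12e-05). The floxed difference was -0.14 (SE 0.06, limma adjusted p = 0.0726) and passed with equal totals (-0.23, adjusted p = 0.00985), in edgeR's quasi-likelihood test (-0.15, adjusted p = 0.0473) and in limma without LysMcre-labelled G-CSF replicate 3 (-0.14, adjusted p = 0.0395).

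Stat5b (ENSMUSG00000020919.11, chromosome 11, 100780731 to 100850724, minus strand) moved little. It had 6542, 6814 and 6971 normalized counts in LysMcre-labelled libraries with G-CSF, against 5952, 6003 and 5925 untreated. The level in floxed libraries was 7333, 6810 and 6505 with G-CSF, against 5928, 5836 and 5988 untreated. The small rise passed in LysMcre-labelled libraries (limma log2 0.18, SE 0.05, adjusted p = 0.00546), where it turned to -0.08 with libraries scaled to equal totals and to -0.08 after quantile normalization, and neither of these passed. In floxed libraries it was 0.22 (SE 0.05, limma adjusted p = 0.00245) and kept its direction under every alternative run, at 0.12 with equal totals and 0.10 after quantile normalization. Scaling to equal totals moved the median difference of all genes tested to -0.26 in LysMcre-labelled libraries and to -0.09 in floxed libraries, and the Stat5b value of -0.08 stands above the LysMcre-labelled median. Under that scaling 31.2% of all genes that passed were rises in LysMcre-labelled libraries, where it had been 49.6%, and 38.5% in floxed libraries, where it had been 49.5%.

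Stat6 (ENSMUSG00000002147.18, chromosome 10, 127642986 to 127660957, plus strand) had 9476, 10125 and 10726 normalized counts in LysMcre-labelled libraries with G-CSF, against 9729, 10243 and 9544 untreated. The floxed libraries had 9348, 9105 and 9058 with G-CSF, against 10227, 10411 and 10107 untreated. The LysMcre-labelled groups overlapped and the floxed groups did not. The LysMcre-labelled difference was 0.04 (SE 0.05, limma adjusted p = 0.564), and it turned to -0.22 with equal totals (adjusted p = 0.000633), to -0.35 after quantile normalization (adjusted p = 5.59e-06) and to -0.01 without LysMcre-labelled G-CSF replicate 3 (adjusted p = 0.938). In floxed libraries Stat6 fell by 0.16 (SE 0.05, limma adjusted p = 0.0217), by 0.25 with equal totals (adjusted p = 0.000336) and by 0.42 after quantile normalization (adjusted p = 1.52e-06). That call was lost without floxed untreated replicate 1 (-0.16, adjusted p = 0.0553) or replicate 2 (-0.15, adjusted p = 0.0729), and without floxed G-CSF replicate 2 (-0.16, adjusted p = 0.0593) or replicate 3 (-0.15, adjusted p = 0.0522).

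**Figure D2:**
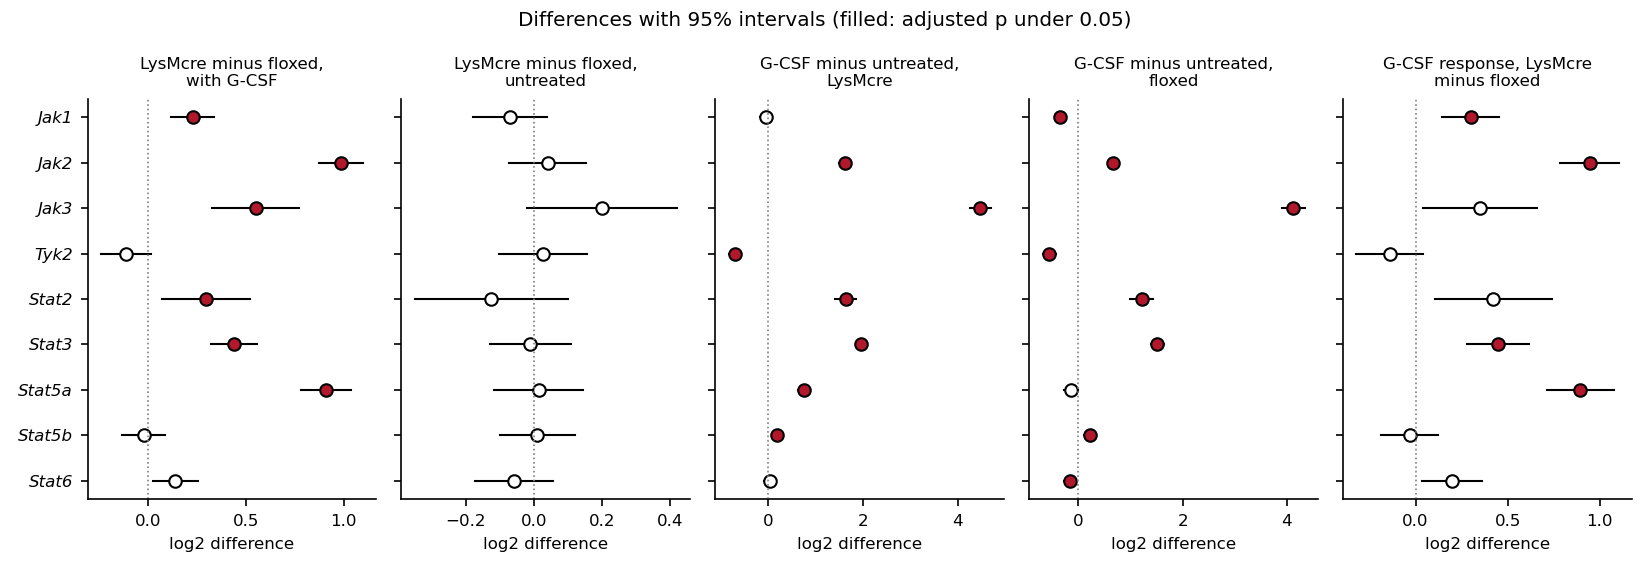
Log2 differences of the 9 genes (points) with 95% intervals (lines) in 5 comparisons, each with its own horizontal scale, where filled points have a limma adjusted p under 0.05. Jak3 stands at 4.47 and 4.13 in the G-CSF comparisons, Jak2 and Stat5a are the highest between the genotypes with G-CSF at 0.99 and 0.91, and every interval of the untreated genotype comparison includes 0.

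The letters upstream of the genes are shown for the 4 that rose in both genotypes by more than a little, Jak3, Jak2, Stat3 and Stat2, and for Tyk2, which fell in both. Each stretch is from the RefSeq promoter table of GRCm38.p6 and holds the bases up to 250 before the RefSeq start that also lie upstream of the annotated gene, written in the direction of transcription. Capitals mark matches, on either strand, to TTCNNNGAA or TTCNNNNGAA (palindromes of the kind STAT dimers bind), GAAANNGAAA (the kind bound by IRF9 complexes that hold STAT2), CCAAT or GGGCGG (general promoter boxes). The coordinates are chr8:71676133-71676295 on the plus strand for Jak3, chr19:29251553-29251802 on the plus strand for Jak2, chr11:100939541-100939790 on the minus strand for Stat3, chr10:128270248-128270497 on the plus strand for Stat2 and chr9:21131276-21131525 on the minus strand for Tyk2.
Jak3: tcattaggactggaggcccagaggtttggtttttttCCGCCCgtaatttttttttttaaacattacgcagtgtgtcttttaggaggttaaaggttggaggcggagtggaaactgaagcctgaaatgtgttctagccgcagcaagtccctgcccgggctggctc
Jak2: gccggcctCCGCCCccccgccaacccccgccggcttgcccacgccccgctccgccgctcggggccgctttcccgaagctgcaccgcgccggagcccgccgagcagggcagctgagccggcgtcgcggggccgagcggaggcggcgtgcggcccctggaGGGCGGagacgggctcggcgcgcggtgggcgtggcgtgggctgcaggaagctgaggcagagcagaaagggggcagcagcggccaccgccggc
Stat3: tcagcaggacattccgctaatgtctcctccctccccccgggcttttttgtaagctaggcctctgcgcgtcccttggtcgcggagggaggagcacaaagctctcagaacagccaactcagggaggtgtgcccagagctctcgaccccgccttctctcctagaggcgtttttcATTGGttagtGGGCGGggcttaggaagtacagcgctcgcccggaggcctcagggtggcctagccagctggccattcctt
Stat2: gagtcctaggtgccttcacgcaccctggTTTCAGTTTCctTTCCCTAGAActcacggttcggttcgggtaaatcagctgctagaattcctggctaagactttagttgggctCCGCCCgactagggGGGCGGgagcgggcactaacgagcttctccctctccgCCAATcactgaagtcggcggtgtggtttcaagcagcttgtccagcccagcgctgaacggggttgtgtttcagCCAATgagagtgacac
Tyk2: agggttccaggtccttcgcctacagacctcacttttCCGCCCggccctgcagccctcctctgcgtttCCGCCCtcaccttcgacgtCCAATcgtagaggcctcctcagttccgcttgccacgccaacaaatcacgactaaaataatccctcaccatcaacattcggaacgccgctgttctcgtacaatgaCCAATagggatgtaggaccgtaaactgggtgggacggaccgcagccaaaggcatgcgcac

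All 9 genes had an entry in the promoter table. Of the 5 stretches printed, Stat2 alone holds a STAT-type palindrome, TTCCCTAGAA at bases -210 to -201 from the RefSeq start. It also holds the IRF9-type motif, read on the other strand as TTTCAGTTTC, at bases -222 to -213, with no overlap between the pair. Over all 32851 promoters in the table and 250 bases upstream, TTCNNNNGAA occurred in 5.85% and GAAANNGAAA in 2.98%. TTCNNNGAA occurred in 7.02% of them and in none of the 5 stretches. CCAAT occurred in 33.9% of all promoters, and in the Stat2, Stat3 and Tyk2 stretches printed. GGGCGG occurred in 32.7% and in all 5 stretches printed. The Jak2 stretch is rich in G and C at 80.8%, the Jak3 stretch has 48.5%, and the median over all promoters is 52.4%. A match is a run of letters and not a measured site, and the absence of one says only that the letters are not in this window.

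With G-CSF, the LysMcre-labelled libraries stood above the floxed ones for most of the 9 genes. Jak1, Jak2, Jak3, Stat2, Stat3 and Stat5a were higher, none was lower, and 3 did not pass, so 6 of 9 were higher while 17.1% of all genes tested were higher, 18.9% lower and 36% passed in either direction. Of the 14 neutrophil markers 2 were higher, 8 lower and 4 did not pass. Of the 8 monocyte and macrophage markers Ly6c2 alone passed, lower in LysMcre-labelled libraries (log2 -1.11, limma adjusted p = 2.73e-08), and the median of the 8 was 0.00. Kit (1.07) and Cd34 (0.39) of the 8 progenitor markers and Ighm (0.80) of the 8 B cell markers were higher. Cd3d (-0.47) and Nkg7 (-0.67) of the 8 T and NK cell markers were lower. None of the erythroid markers passed, nor did those of eosinophils, basophils and mast cells. Without G-CSF the means of Cd34 (271 and 223) and Ighm (10463 and 6737) were also higher in LysMcre-labelled than in floxed libraries. Those of Kit were 800 and 783, and no progenitor or B cell marker passed between untreated genotypes. The part of these cells in the result was not tested. In 7 of the 9 genes every LysMcre-labelled library was above every floxed one, which held for 22.4% of all genes tested. The median difference of the 9 was 0.30, against -0.01 over all genes tested. With libraries scaled to equal totals the median over all genes moved to -0.13, and 28.2% of all genes that passed were higher, where it had been 47.5%.

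Jak2 differed most, with 6706 to 7144 normalized counts in LysMcre-labelled and 3360 to 3565 in floxed libraries, 1.98-fold higher in LysMcre-labelled (limma log2 0.99, SE 0.05, adjusted p = 2.89e-09). Stat5a had 1499 to 1736 in LysMcre-labelled and 852 to 889 in floxed libraries, 1.88-fold higher (limma log2 0.91, SE 0.06, adjusted p = 2.55e-08). Jak3 was 1.46-fold higher (limma log2 0.55, SE 0.10, adjusted p = 0.000629), with its lowest LysMcre-labelled library at 8313 and its highest floxed library at 7191. Stat3 was 1.36-fold higher (limma log2 0.44, SE 0.06, adjusted p = 1.72e-05), with a log2 difference of 0.29 after quantile normalization (adjusted p = 3.59e-05). The calls of Jak2, Jak3 and Stat3 held in all 20 alternatives run, and that of Stat5a was lost only when Stat5a and Stat5b were summed. That sum is mostly Stat5b, with Stat5a at 10.8% to 20.3% of it, and is another quantity than Stat5a.

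Jak1 was 1.17-fold higher in LysMcre-labelled libraries with G-CSF (limma log2 0.23, SE 0.05, adjusted p = 0.00259), and the difference was 0.11 with equal totals (adjusted p = 0.0458) and 0.02 after quantile normalization (adjusted p = 0.721). Stat2 was 1.23-fold higher (limma log2 0.30, SE 0.11, adjusted p = 0.0395), a call lost in 7 of 20 alternatives. Its difference was 0.18 with equal totals (adjusted p = 0.203) and 0.23 after quantile normalization (adjusted p = 0.113). It was 0.22 without floxed G-CSF replicate 2 (adjusted p = 0.168) and 0.30 without replicate 3 (adjusted p = 0.0737). Without LysMcre-labelled G-CSF replicates 1, 2 or 3, left out in turn, it was 0.29, 0.27 and 0.33 (adjusted p = 0.086, 0.113 and 0.052). Of the 6 calls, that of Stat2 was lost most often.

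Stat6 lay higher without overlap at 9476 to 10726 in LysMcre-labelled and 9058 to 9348 in floxed libraries, and did not pass in limma (log2 0.14, SE 0.05, adjusted p = 0.0561). It passed in edgeR (0.16, adjusted p = 0.0249), in DESeq2 (0.14, adjusted p = 0.0332) and in limma without LysMcre-labelled G-CSF replicate 1 (0.18, adjusted p = 0.0154). It was 0.02 with equal totals (adjusted p = 0.771) and 0.04 after quantile normalization (adjusted p = 0.53). Tyk2 had a difference of -0.11 (SE 0.06, limma adjusted p = 0.158), which passed with equal totals (-0.23, adjusted p = 0.00911) and without LysMcre-labelled G-CSF replicate 2 (-0.18, adjusted p = 0.0332), and was -0.05 without LysMcre-labelled G-CSF replicate 1 (adjusted p = 0.512). Stat5b had a difference of -0.02 with a 95% interval of -0.13 to 0.09 (limma adjusted p = 0.788). With equal totals it was -0.14 (adjusted p = 0.00866) and after quantile normalization -0.13 (adjusted p = 0.00854), and it turned to 0.03 without floxed G-CSF replicate 1 and to 0.00 without LysMcre-labelled G-CSF replicate 1.

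Without G-CSF, none of the 9 genes passed between the genotypes. In limma 0 of 9 passed, 0 had an unadjusted p under 0.05, and edgeR and DESeq2 also called 0, while 0.115% of all genes tested passed (0.0647% higher and 0.0503% lower). The differences ran from -0.13 for Stat2 (95% interval -0.35 to 0.10) to 0.20 for Jak3 (95% interval -0.02 to 0.42), all with a limma adjusted p of 1. Jak3 was the only one of the 9 whose groups did not overlap, at 410 to 424 normalized counts in LysMcre-labelled and 303 to 399 in floxed libraries, and 3.93% of all genes tested lay higher and 5.4% lower without overlap. The intervals of the other 7 reached at most from -0.18 (Jak1) to 0.15 (Tyk2).

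The response to G-CSF was then compared between the genotypes, as the LysMcre-labelled response minus the floxed response. It was larger in LysMcre-labelled libraries for Jak1, Jak2, Stat3 and Stat5a, smaller for none, and 5 genes did not pass, while 10.9% of all genes tested had a higher and 11.5% a lower response and 22.4% passed in either direction. The difference in response was 0.95 for Jak2 (SE 0.07, limma adjusted p = 5.42e-07), 0.90 for Stat5a (SE 0.09, limma adjusted p = 3.29e-06), 0.45 for Stat3 (SE 0.08, limma adjusted p = 0.000688) and 0.30 for Jak1 (SE 0.07, limma adjusted p = 0.00775). That of Stat3 was 0.28 with equal totals (adjusted p = 0.00291) and 0.27 after quantile normalization (adjusted p = 0.00277). For Jak1 the floxed libraries fell, and the LysMcre-labelled difference did not pass. The Jak1 call was lost with equal totals (0.13, adjusted p = 0.114) and after quantile normalization (0.06, adjusted p = 0.522). Scaling to equal totals moved the median over all genes to -0.18 and 23.0% of the genes that passed had a higher response, where it had been 48.6%.

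The Jak3 difference in response was 0.35 (SE 0.15, limma adjusted p = 0.106). It passed without floxed untreated replicate 3 (0.48, adjusted p = 0.0106), without floxed G-CSF replicate 1 (0.44, adjusted p = 0.0405) and without LysMcre-labelled G-CSF replicate 1 (0.43, adjusted p = 0.0478), and was 0.18 with equal totals (adjusted p = 0.382) and 0.19 after quantile normalization (adjusted p = 0.339). That of Stat2 was 0.42 (SE 0.15, limma adjusted p = 0.0554) and passed in edgeR (0.45, adjusted p = 0.04) and DESeq2 (0.43, adjusted p = 0.0249). It also passed without floxed untreated replicate 2 (0.51, adjusted p = 0.0233), LysMcre-labelled untreated replicate 3 (0.47, adjusted p = 0.048) or floxed G-CSF replicate 1 (0.49, adjusted p = 0.0332). With equal totals it was 0.25 (adjusted p = 0.235) and after quantile normalization 0.33 (adjusted p = 0.138). Stat6 (0.20, SE 0.08, limma adjusted p = 0.0767) passed in edgeR (0.21, adjusted p = 0.0457), in DESeq2 (0.20, adjusted p = 0.0433) and without LysMcre-labelled G-CSF replicate 1 (0.24, adjusted p = 0.0243), and was 0.03 with equal totals (adjusted p = 0.79) and 0.07 after quantile normalization (adjusted p = 0.525). Tyk2 had a difference of -0.14 (limma adjusted p = 0.283) and Stat5b of -0.03 (limma adjusted p = 0.817), and both were lower past 0.05 with equal totals, at -0.31 (adjusted p = 0.0189) and -0.20 (adjusted p = 0.0121). After quantile normalization Stat5b was at -0.19 (adjusted p = 0.0148), and without LysMcre-labelled G-CSF replicate 1 Tyk2 was at -0.08 (adjusted p = 0.526).

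The balance between the kinases was read from levels per kb of exon, which allow genes of different length to be set side by side. Jak1 was the highest of the 4 in every group, at 2082 ± 18.8 normalized counts per kb in LysMcre-labelled and 1778 ± 78.3 in floxed libraries with G-CSF, and at 2153 ± 60.3 in LysMcre-labelled and 2260 ± 68.2 in floxed untreated libraries (SD, n = 3 each). Jak3 was second with G-CSF, at 1742 ± 166 per kb in LysMcre-labelled and 1191 ± 132 in floxed libraries, and last without it, at 77.9 ± 1.26 in LysMcre-labelled and 68.4 ± 10.2 in floxed libraries. As a share of the 4 kinases per kb, Jak3 was 32.3% in LysMcre-labelled and 30.8% in floxed libraries with G-CSF, and 2.61% in LysMcre-labelled and 2.24% in floxed untreated libraries. The order was Jak1, Jak3, Jak2 and Tyk2 with G-CSF and Jak1, Jak2, Tyk2 and Jak3 without it, with no overlap between neighbours in any group.

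Jak1 made up 38.7% of the kinase level per kb in LysMcre-labelled and 46.0% in floxed libraries with G-CSF, and 72.2% in LysMcre-labelled and 73.8% in floxed untreated libraries. Tyk2 made up 3.47% in LysMcre-labelled and 5.24% in floxed libraries with G-CSF, and 10.2% in LysMcre-labelled and 9.73% in floxed untreated libraries. Jak2 made up 25.5% in LysMcre-labelled and 18.0% in floxed libraries with G-CSF, and 15.0% in LysMcre-labelled and 14.2% in floxed untreated libraries. The summed kinase level per kb was 5385 ± 223 in LysMcre-labelled and 3865 ± 209 in floxed libraries with G-CSF, and 2982 ± 69.3 in LysMcre-labelled and 3062 ± 78.3 in floxed untreated libraries (SD, n = 3 each). These shares are descriptions, since 3 libraries against 3 cannot give an exact two-sided permutation p below 0.1.

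Among the 5 STAT genes the leading gene also differed with treatment. Stat6 was highest in untreated libraries, at 2235 ± 82.3 normalized counts per kb in LysMcre-labelled and 2328 ± 34.8 in floxed ones, followed by Stat5b, Stat3, Stat2 and Stat5a. With G-CSF Stat3 came before Stat6, at 3005 ± 67.5 and 2297 ± 142 per kb in LysMcre-labelled libraries and at 2220 ± 156 and 2083 ± 35.4 in floxed libraries (SD, n = 3 each). Neighbours did not overlap, except Stat3 and Stat6 in floxed G-CSF libraries, whose ranges were 2084 to 2390 and 2058 to 2124 per kb. Stat3 made up 40.2% of the summed level per kb of the 5 genes in LysMcre-labelled and 35.5% in floxed libraries with G-CSF, and 17.3% in LysMcre-labelled and 17.0% in floxed untreated libraries. With the length of the longest coding transcript in place of all exons, an alternative chosen after seeing the data, Stat3 lay above Stat5b in untreated libraries, the untreated ranges of Jak2 and Tyk2 overlapped, and Stat3 and Stat6 no longer overlapped.

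**Figure D3:**
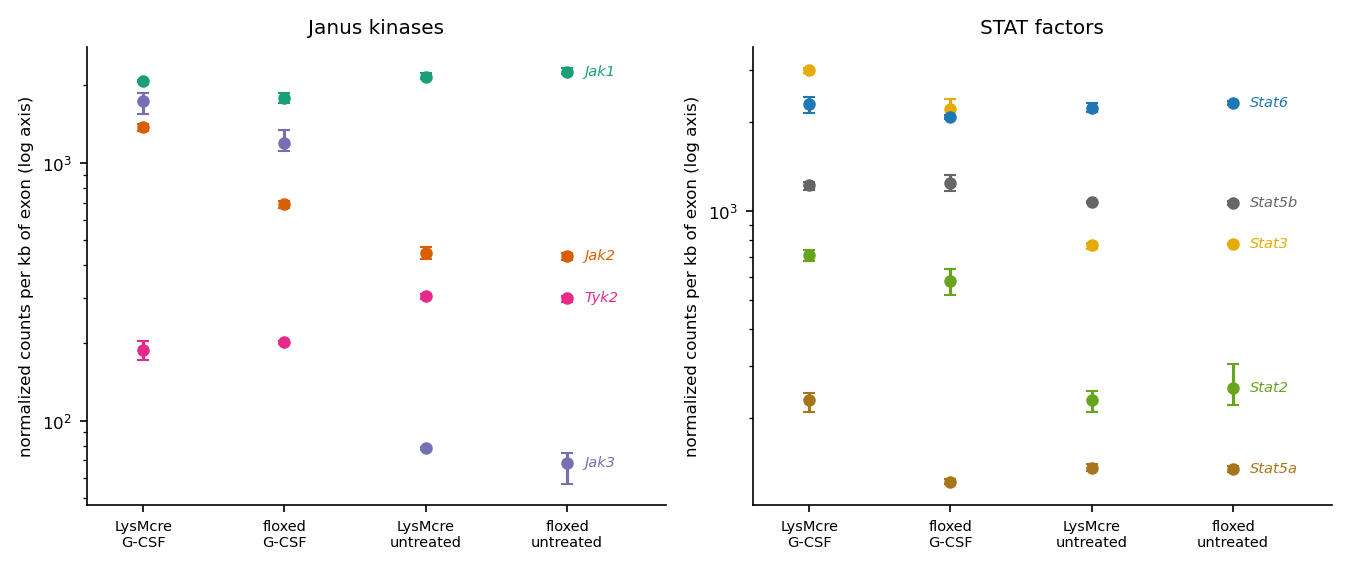
Normalized counts per kb of exon (log axes) of the 4 kinase genes (left) and the 5 STAT genes (right) in the 4 groups, where points are means of 3 libraries and bars span the lowest to the highest library. Jak3 is the lowest kinase gene in untreated libraries at 77.9 and 68.4 per kb and the second highest with G-CSF at 1742 and 1191, and Stat3 passes Stat5b and Stat6 with G-CSF.

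Stat5b, Stat5a and Stat3 lie in a row on chromosome 11, and G-CSF moved them unequally. The starts of Stat5b and Stat5a are 8626 bases apart and point away from each other, and the ends of Stat5a and Stat3 run into each other on opposite strands and overlap by 72 bases. Stat5a made up 20.3%, 20.3% and 17.7% of the summed Stat5a and Stat5b level in LysMcre-labelled libraries with G-CSF, against 13.9%, 13.6% and 14.4% untreated. In floxed libraries it made up 10.8%, 11.1% and 11.7% with G-CSF, against 13.8%, 13.8% and 14.1% untreated. The share was thus above its untreated range in LysMcre-labelled libraries and below it in floxed ones. The summed level of the pair was 0.12 higher in LysMcre-labelled than in floxed libraries with G-CSF and did not pass (log2, SE 0.05, limma adjusted p = 0.0745). With G-CSF the sum rose by 0.28 in LysMcre-labelled (SE 0.05, limma adjusted p = 0.000138) and 0.17 in floxed libraries (SE 0.05, limma adjusted p = 0.00904), and the difference of these responses was 0.11 (limma adjusted p = 0.322).

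**Figure D4:**
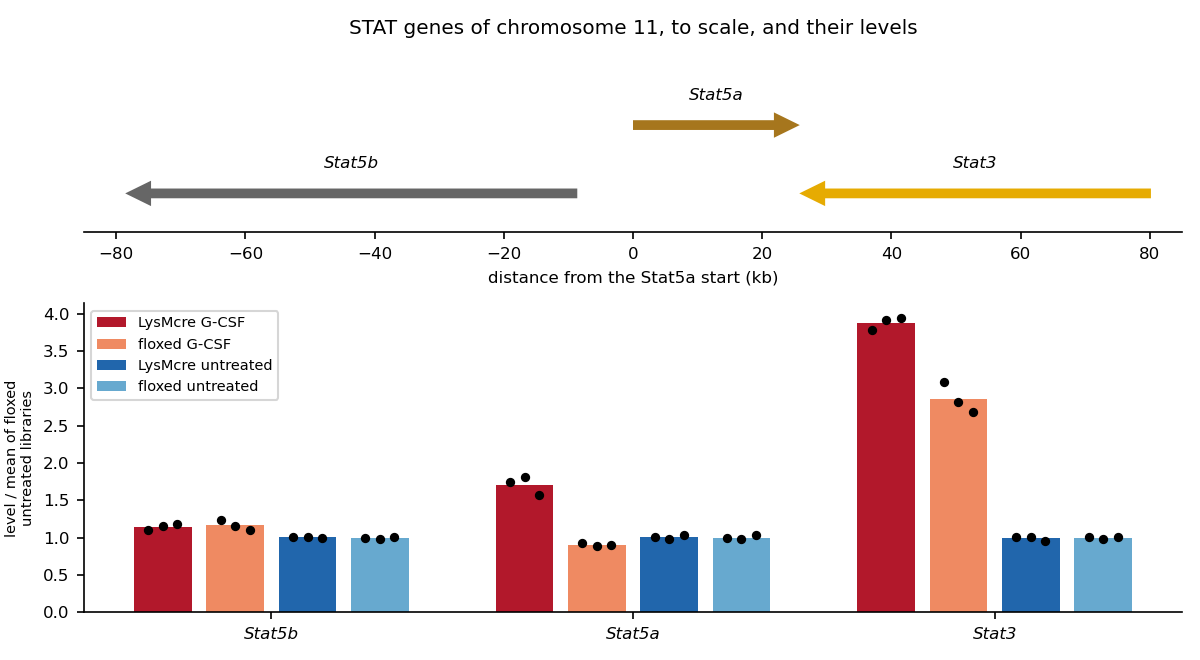
Map of Stat5b, Stat5a and Stat3 drawn to scale as distance in kb from the Stat5a start, with arrows in the direction of transcription (top), and the level of each gene relative to its mean in floxed untreated libraries (bottom; bars are means, points are libraries). Stat3 is the highest of the 3 in all G-CSF libraries, Stat5a is raised in the LysMcre-labelled G-CSF libraries alone, and Stat5b stays close to 1 in all groups.

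How reads that fit several genes were counted is not given in the sources used here. The shared sequence of each gene was therefore measured on its longest transcript. Of the stretches of 50 bases in Stat5a, 16.4% also occurred in another gene, nearly all of them in Stat5b (608 of 3839), and 11.8% of those in Stat5b occurred in Stat5a. The values of these paralogs are therefore uncertain, and the shares do not bound by how much. Stat5b stood far above Stat5a, at 6883 against 869 normalized counts in floxed libraries with G-CSF. Misplaced Stat5b reads could thus weigh more on Stat5a than its share of stretches. In Jak3 8.94% of the stretches were shared, all with Insl3, a hormone gene annotated inside the end of Jak3 on the same strand over 1362 bases. Insl3 averaged 183 ± 18.9 normalized counts in LysMcre-labelled and 135 ± 14.8 in floxed libraries with G-CSF, and 8.96 ± 4.11 in LysMcre-labelled and 7.13 ± 4.46 in floxed untreated libraries (SD, n = 3 each). Those values are small beside Jak3 in every group. They hold only the reads assigned to Insl3, and do not bound how many reads fit both genes. Stat3 shared 0.384% of its stretches, and Jak1, Jak2, Tyk2, Stat2 and Stat6 shared none.

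Nab2, a corepressor of EGR factors, overlaps the end of Stat6 by 40 bases on the opposite strand. It averaged 736 ± 113 normalized counts in LysMcre-labelled and 95.2 ± 11.1 in floxed libraries with G-CSF, and 86.0 ± 9.35 in LysMcre-labelled and 74.6 ± 19.6 in floxed untreated libraries (SD, n = 3 each). Stat6 itself had at least 9058 in every library. The nearest tested neighbours on the chromosome moved in various directions with G-CSF. B3gnt3, a glycosyltransferase gene 180 bases from Jak3, rose by 2.83 in LysMcre-labelled and 2.80 in floxed libraries, and Unc13a on the other side did not pass (0.07 and 0.01). Next to Stat3, Atp6v0a1, a proton pump subunit gene, rose by 2.74 in LysMcre-labelled and 1.54 in floxed libraries. On the sides of Tyk2, the adhesion molecule gene Icam1 rose by 1.55 and 0.68, and the kinase chaperone gene Cdc37 fell by 0.41 and 0.33. Nemp1 beside Stat6 rose by 1.96 in LysMcre-labelled and 1.97 in floxed libraries, and Pan2 beside Stat2 did not pass (-0.07 and -0.12).

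The genes whose levels ran most like those of the 3 genes with the widest range of group means were named by Pearson's r over the 12 libraries on the log2(value + 1) scale, as a description, since the 12 points fall into treatment groups and share libraries. For Jak3 these were Sema6b (r = 0.9986), Fam20c (0.9985) and Tmem156 (0.9984). For Stat3 they were Sbno2 (0.9996), the interleukin-4 receptor gene Il4ra (0.9995) and Gpr146 (0.9991). For Jak2 they were the amino acid transporter subunit gene Slc3a2 (0.9988) and Sgpl1 (0.9966).

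The other genes of the pathway were counted by role. Over all genes tested, 31.1% rose and 31.6% fell with G-CSF in LysMcre-labelled libraries, and 24.1% and 24.6% in floxed ones. Between the genotypes with G-CSF, 17.1% of all genes tested were higher and 18.9% lower. The counts of each role are to be read beside these shares. Of 18 ligand genes listed, 7 were in the table. With G-CSF 3 rose, 2 fell and 2 did not pass in LysMcre-labelled libraries, and 3 rose, 1 fell and 3 did not pass in floxed libraries. Oncostatin M (Osm), a ligand of the interleukin-6 family, rose by 2.91 in LysMcre-labelled and 2.15 in floxed libraries, and Il27 rose by 1.95 and 1.03. Lif rose by 1.15 and 0.98 (SE 0.39 for both, limma adjusted p = 0.0177 and 0.0486), at very low levels. It averaged 15.9 normalized counts in LysMcre-labelled and 16.9 in floxed G-CSF libraries, and 6.58 and 9.09 in the untreated ones. Ebi3, which encodes the partner chain of the Il27 product, fell by 0.58 and 0.32. Between the genotypes with G-CSF, Il27 (0.80) and Osm (0.72) were higher and Ebi3 (-0.31) was lower in LysMcre-labelled libraries, and 4 did not pass.

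Of 28 receptor genes listed, 24 were in the table, and their response to G-CSF was mostly upward. In LysMcre-labelled libraries 16 rose, 2 fell and 6 did not pass (median 1.00), and in floxed libraries 15 rose, 1 fell and 8 did not pass (median 0.62). Il13ra1 rose by 5.43 in LysMcre-labelled and 5.07 in floxed libraries, Il4ra by 4.70 and 3.54, and the beta chains of the GM-CSF receptor, Csf2rb2 by 3.65 and 3.14 and Csf2rb by 3.17 and 2.70. The products of Il13ra1 and Il4ra form a receptor that signals to STAT6, whose own gene passed upward in neither genotype. Csf3r, the G-CSF receptor gene, was looked at after its values were seen and rose 2.19-fold in LysMcre-labelled and 2.13-fold in floxed libraries (log2 1.13 and 1.09, limma adjusted p = 1.3e-07 and 3.65e-07). Between the genotypes with G-CSF 13 receptor genes were higher, 2 lower and 9 did not pass (median 0.45), with Il21r at 1.58, Il4ra at 1.14, Il10ra at 0.98 and Il15ra at -0.84.

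Of the 20 inhibitor genes, 8 rose, 3 fell and 9 did not pass with G-CSF in LysMcre-labelled libraries (median 0.15). In floxed libraries 6 rose, 2 fell and 12 did not pass (median 0.03). Over all genes tested 31.1% rose and 31.6% fell in LysMcre-labelled libraries, and 24.1% rose and 24.6% fell in floxed ones. Socs3 rose by 7.00 in LysMcre-labelled and 6.44 in floxed libraries. Cish, a STAT5 target that feeds back on the receptor, rose by 3.28 and 1.17, and Ptpn1, a phosphatase gene whose product acts on JAK2 and TYK2, by 1.85 and 1.12. Between the genotypes with G-CSF 6 were higher, 3 lower and 11 did not pass (median 0.15). Cish stood 2.07 and Socs1, a direct inhibitor of the kinases, 1.40 higher in LysMcre-labelled libraries, and Usp18, a brake on interferon receptor signalling, stood 1.14 lower (log2 -1.14, limma adjusted p = 0.0107). Without G-CSF the Usp18 difference was -0.80 and did not pass. The Usp18 difference in response was -0.33 and did not pass either (limma adjusted p = 0.675).

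Of the 13 partner genes, which encode cofactors and nuclear import factors of STAT proteins, 8 rose, 3 fell and 2 did not pass with G-CSF in LysMcre-labelled libraries (median 0.18), and 7 rose, 1 fell and 5 did not pass in floxed libraries (median 0.17). Irf9, the DNA-binding partner of STAT2, rose by 1.41 in LysMcre-labelled and 0.83 in floxed libraries, and the coactivator gene Ncoa1 fell by 1.69 and 0.93. Between the genotypes with G-CSF 2 were higher, 3 lower and 8 did not pass (median 0.04), with Ncoa1 at -0.83 and Nmi, an interferon-induced STAT-binding protein, at -0.41.

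The 18 target genes, which STAT3 or STAT5 are known to regulate in various cells, had the highest medians. The lists were chosen with earlier results of these data known, so this order is a description and not a test. With G-CSF 16 rose, 1 fell and 1 did not pass in LysMcre-labelled libraries (median 2.13), and 15 rose, 0 fell and 3 did not pass in floxed libraries (median 1.57). Il1r2, the decoy receptor of interleukin-1, rose by 4.39 in LysMcre-labelled and 2.42 in floxed libraries. Bcl3, a nuclear regulator of NF-kappaB, rose by 4.07 and 3.42, the transcription factor gene Junb by 3.66 and 2.91, and the kinase gene Pim1 by 3.43 and 2.86. Between the genotypes with G-CSF 13 were higher, 1 lower and 4 did not pass (median 0.72), among them Il1r2 at 1.70, the survival gene Bcl2l1 at 1.49, Ccnd2 at 1.40 and Cebpb at 1.02. The 1 lower gene was Bcl6 (-0.66), named after its values were seen. Without G-CSF no gene of the 5 lists passed between the genotypes in limma. The response to G-CSF was larger in LysMcre-labelled libraries for 12 targets, 11 receptors, 5 inhibitors, 2 ligands and 1 partner. It was smaller for 1 target, 2 receptors, 0 inhibitors, 0 ligands and 2 partners. Over all genes tested 10.9% had a higher and 11.5% a lower response in LysMcre-labelled libraries.

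**Figure D5:**
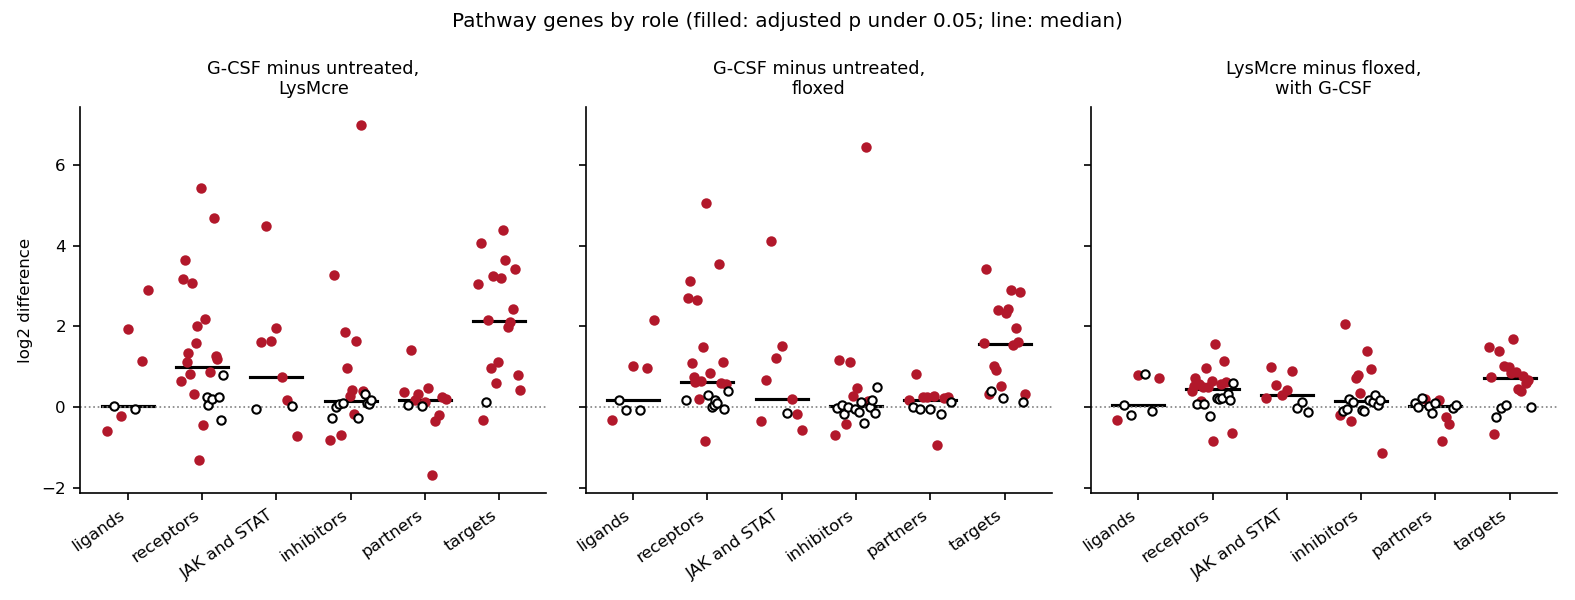
Log2 differences of the pathway genes by role in 3 comparisons, where each point is a gene, filled points have a limma adjusted p under 0.05 and lines are medians. The targets have the highest median in each panel, 2.13, 1.57 and 0.72, and the inhibitor far above the others in the G-CSF panels is Socs3 at 7.00 and 6.44. The lists were chosen with earlier results of these data known.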

How the data were processed

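RNA of 12 libraries was sequenced, 3 in each of 4 groups taken from the titles, or from the descriptions for LysMcre-labelled cells with G-CSF. In the table header LysMcre-labelled untreated replicate 2 has the number 3. The deposited table holds a signal unit, in which the authors divided gene counts by a size factor for each library. This was read from the values: 100% of them gave whole reads, to within 0.01 read. The build is named as mm10, per the submitters' processing notes, with aligner, counter, annotation and use of strand not given in the sources used here. The lowest row total was 121 reads, and 2 columns held no sample and no values. Replicates of a group differed beyond sampling noise in every pair (chi-square per gene 3.55 to 12.9), so all 12 libraries were counted.

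After adding 1, values were put on the log2 scale, 20 rows averaging under 10 were dropped, and all 4 groups were fitted together without a block in limma 3.58.1 (R 4.3.3, trended prior, 8 residual degrees of freedom), with two-sided p-values adjusted over 13915 genes by Benjamini and Hochberg's method (Benjamini-Hochberg) and called under 0.05. Folds come from the log2 differences and understate changes of low genes. The comparisons share control libraries. Count tests on the recovered reads (edgeR 4.0.16, DESeq2 1.42.0) were alternatives, beside a pseudocount of 8, no filter, equal totals, quantile normalization, the compared groups alone, a replicate block and leaving out each library. The fit was tested on simulated data. Lengths and positions are from GENCODE M21 (13547 names matched), promoters from RefSeq GRCm38.p6. The 9 genes, the pathway and marker lists and the naming rule (up to 4 genes per list and comparison by size among those past 0.05, the 3 genes most like a member, the nearest neighbours) were chosen with earlier results of these data known. One gene that the naming rule selects is not reported here.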

Additional observations from a re-analysis of the deposited data

Results flagged for a closer look

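For 4 of the 9 genes the response to G-CSF differed between the genotypes in a test of the difference itself (limma, adjusted over 13915 genes), with 3 libraries in each of the 4 groups. Of all genes tested 22.4% passed in that test, 10.9% with a higher and 11.5% with a lower response in LysMcre-labelled libraries. The LysMcre-labelled response exceeded the floxed response by 0.95 on the log2 scale for Jak2, by 0.90 for Stat5a, by 0.45 for Stat3 and by 0.30 for Jak1. For Jak2 and Stat3 both genotypes rose. Stat5a rose in LysMcre-labelled libraries, while its floxed difference was downward at -0.14 and did not pass. For Jak1 the fall passed in floxed libraries and not in LysMcre-labelled ones. Among the markers of other cells Kit had a larger response in LysMcre-labelled libraries (1.04), and those of the monocyte marker Ly6c2 (-0.98), the T cell marker Cd3d (-0.75) and the eosinophil marker Prg2 (-0.83) were lower there; the other markers of those lists did not pass, and their part in these differences was not tested. With equal totals the differences in response were 0.78 for Jak2, 0.73 for Stat5a, 0.28 for Stat3 and 0.13 for Jak1, of which that of Jak1 did not pass.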

How the results depend on the processing

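Of 901 results for the 9 genes under alternatives, 841 kept their direction and their side of the threshold, 16 lost a call, 27 gained a call and 17 changed sign. These counts include the Stat5a and Stat5b sum as an alternative for each of the pair, though it is mostly Stat5b. The G-CSF responses of Jak2, Jak3, Stat2, Stat3 and Tyk2 and the genotype differences of Jak2, Jak3 and Stat3 with G-CSF kept their calls in all alternatives run. Among the sign changes, the Stat5b genotype difference with G-CSF ran from -0.061 to 0.025 over the libraries left out in turn and was 0.12 for the Stat5a and Stat5b sum; its difference in response ran from -0.072 to 0.015 and was 0.11 for the sum. Stat5b in LysMcre-labelled libraries with G-CSF was -0.077 with equal totals and -0.083 after quantile normalization. Stat6 there was -0.22 with equal totals and -0.35 after quantile normalization, and -0.0057 to 0.084 over the libraries left out. Stat5a in floxed libraries with G-CSF was 0.17 for the sum. Untreated genotype differences, none of which passed, turned for Stat3 (0.039 with equal totals, 0.0265 after quantile normalization, -0.024 to 0.014 over the libraries left out), Stat2 (-0.22 to 0.015) and Stat5a (-0.0070 to 0.035). The cause was not tested.

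The number of all genes called between untreated genotypes was 16 in limma, 28 in DESeq2, and 9 to 21 over the libraries left out, with 9 without floxed untreated replicate 1 and 10 without LysMcre-labelled untreated replicate 1; the 9 genes gave 0 calls throughout. Whether replicate numbers pair the libraries was not settled. Deviations of 18 same-numbered pairs correlated between -0.18 and 0.32, with 4 over 0.1, and 6 of 12 libraries correlated best with their own number. Between untreated and G-CSF libraries of floxed cells, same-numbered pairs gave 0.32, 0.20 and 0.06, and other pairs -0.28 to 0.15. For LysMcre-labelled cells same-numbered pairs gave 0.21, -0.03 and 0.03, and other pairs -0.18 to 0.16. With the replicate as a block, the difference in response of Stat2 passed (0.42, limma adjusted p = 0.0367) and 5 of 9 genes were called there. Without the block 4 of 9 were called, and 22.4% of all genes tested. Depth sets no limit for these genes, whose reads numbered 322 or more in every library; 3 libraries per group, and genes that share sequence, do.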
